A study of Danio rerio with 3 samples.

Results

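The genes examined were the zebrafish CXCL12 ligands cxcl12a and cxcl12b and their receptors ackr3a, ackr3b, cxcr4a and cxcr4b. They were found by symbol in the deposited gene tables. All 6 were present, each with a single identifier, among 32057 genes in all. Brain tissue of Danio rerio was profiled with 10x Genomics droplets, and whether cells or nuclei were loaded was not settled. A unique molecular identifier (UMI) counts each captured transcript and a barcode marks each droplet. There were 3 libraries, a control (Ctrl) and the zinc treatments named Zn10 and Zn15. What the numbers 10 and 15 measure, the route and length of exposure, the strain, genotype and age of the fish, and how many were pooled were not stated in the labels or file headers.

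Cxcl12 is a secreted chemokine that guides migrating cells. Cxcr4 is its signalling receptor, coupled to inhibitory G proteins, and Ackr3 (also called Cxcr7) binds and internalises Cxcl12 and so clears it from the surroundings. Zebrafish kept a pair of copies of each gene after a genome duplication. In the embryo, cxcl12a, cxcr4b and ackr3b are known for steering germ cells and the lateral line primordium, and cxcl12b and cxcr4a for patterning vessels. In the brain the system is known for guiding neurons and for holding and moving leukocytes.

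Depth was low: Ctrl had 5679 barcodes and 1698707 UMIs in total (median 240 per barcode), Zn10 had 2850 and 974866 (median 271), and Zn15 had 5154 and 1634806 (median 255). A count of 0 allows up to 3 UMIs, which is 1.77, 3.08 and 1.84 UMIs per 1000000 (CPM). Libraries shared 4 to 8 barcode sequences by pair. Each treatment had 1 library, so no test across samples was possible. Intervals are exact at 95% and cover counting error only. They treat UMIs as independent, and spread between fish or preparations is not in them. Every ratio below compares libraries, and the zinc treatment cannot be told apart from other differences between them. Brain cell types were present, with oligodendrocyte, neuron, radial glia and microglia markers all detected.

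The ligands were higher in both zinc libraries than in Ctrl, cxcl12a modestly and cxcl12b from very few UMIs. Of the receptors, cxcr4b was higher in Zn15, ackr3a was at nearly the same level in the 3 libraries, and ackr3b and cxcr4a had few UMIs throughout. Zn10 and Ctrl are compared at 1.5-fold, a size chosen for description. Among 8067 genes with at least 20 UMIs in this pair, 27.2% were past it either way, 16.4% higher and 10.7% lower. Of the 4 members with that many UMIs, 2 were higher and 0 lower. For Zn15 over Ctrl 25.6% of 8697 genes were past it, 11.4% higher and 14.2% lower, against 2 of 5 members higher and 0 lower. For Zn15 over Zn10 27.6% of 8002 genes were past it, 9.11% higher and 18.5% lower, against 2 of 6 members lower and 0 higher. With so few members these counts are a description only.

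The ligand gene cxcl12a gave 187, 162 and 261 UMIs in Ctrl, Zn10 and Zn15, which is 110.1 CPM (94.9 to 127), 166 CPM (142 to 194) and 159.7 CPM (140.9 to 180.2). Its CPM ratio to Ctrl was 1.51 in Zn10 (1.22 to 1.87) and 1.45 in Zn15 (1.20 to 1.76). The median gene, among 1468 with at least 100 UMIs in each library, was itself shifted by 0.10 on the log2 scale in Zn10 over Ctrl, by −0.06 in Zn15 over Ctrl and by −0.16 in Zn15 over Zn10. Relative to that shift, cxcl12a in Zn10 stood at 1.40, inside 1.5-fold. The share of barcodes with a cxcl12a UMI was 2.57%, 3.82% and 3.14%. The ratios of these shares to Ctrl were 1.49 in Zn10 (1.15 to 1.92) and 1.22 in Zn15 (0.972 to 1.54). Zinc libraries were deeper per barcode. At an equal depth of 200 UMIs the shares were 1.80%, 2.17% and 2.14%, with intervals that overlap. This left out 2059, 824 and 1690 barcodes with fewer UMIs.

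The other ligand gene, cxcl12b, gave 6, 32 and 33 UMIs in the same order, which is 3.53 CPM (1.30 to 7.69), 32.8 CPM (22.5 to 46.3) and 20.2 CPM (13.9 to 28.3). The Ctrl interval lay below both zinc intervals. The CPM ratio was 9.29 in Zn10 (3.83 to 27.2) and 5.71 in Zn15 (2.36 to 16.7). These UMIs came from 5, 10 and 12 barcodes, and the highest barcode held 2, 8 and 10 of them. Counted as barcodes, the ratios were 3.99 in Zn10 (1.24 to 14.9) and 2.64 in Zn15 (0.867 to 9.58), the latter including 1. In barcodes with at least 200 genes, the Zn15 over Zn10 ratio went from 0.615 (0.367 to 1.03) to 0.212 (0.0772 to 0.508), and the Zn10 over Ctrl ratio to 33.1 (5.39 to 1359). The Zn15 over Ctrl ratio was then 7.01 (0.901 to 316), which includes 1. At an equal depth of 200 UMIs, cxcl12b was found in 1, 5 and 7 barcodes, with ratios of shares of 8.93 in Zn10 (0.9997 to 423) and 7.32 in Zn15 (0.940 to 330), both including 1.

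The scavenger receptor gene ackr3a gave 64, 37 and 65 UMIs, at 37.7 CPM (29.0 to 48.1), 38.0 CPM (26.7 to 52.3) and 39.8 CPM (30.7 to 50.7). The ratios to Ctrl were 1.01 in Zn10 (0.653 to 1.53) and 1.06 in Zn15 (0.736 to 1.51). In barcodes with at least 100 genes they were 1.25 (0.793 to 1.95) and 0.983 (0.646 to 1.49). With at least 200 genes they were 3.099 (1.28 to 8.24) and 1.88 (0.748 to 5.12), the latter including 1. For Zn10 the near equality thus depended on which barcodes were kept, and the reason was not tested. Its copy ackr3b gave 12, 6 and 14 UMIs, at 7.06, 6.15 and 8.56 CPM with overlapping intervals. A difference in ackr3b was not detectable at this depth.

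The signalling receptor gene cxcr4b gave 148, 108 and 234 UMIs, at 87.1 CPM (73.7 to 102), 110.8 CPM (90.9 to 134) and 143 CPM (125 to 163). The Ctrl and Zn15 intervals did not overlap, and Zn10 lay between. The ratio was 1.64 in Zn15 (1.33 to 2.03) and 1.27 in Zn10 (0.983 to 1.64). In barcodes with at least 200 genes the Zn15 ratio was 1.199 (0.828 to 1.74), and at an equal depth of 200 UMIs the ratio of shares was 1.43 (0.993 to 2.06), both including 1. Its copy cxcr4a gave 3, 12 and 9 UMIs, at 1.77, 12.3 and 5.51 CPM. The cxcr4a ratio was 6.97 in Zn10 (1.88 to 38.5) and 3.12 in Zn15 (0.778 to 17.9). Both pairs had under 20 UMIs, the minimum used for the counts of genes past 1.5-fold. Of all cxcr4 UMIs, cxcr4a made up 1.99% (0.412 to 5.70), 10.0% (5.27 to 16.8) and 3.70% (1.71 to 6.91).

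**Figure D1:**
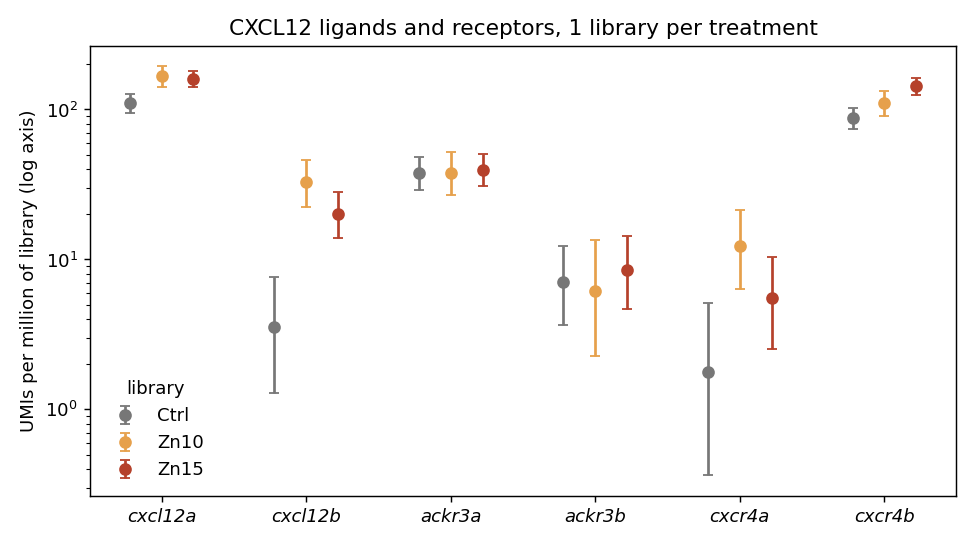
Level of each gene in each library, in CPM on a log axis; points are 1 library each and bars are exact 95% Poisson intervals for counting error. cxcl12b stood at 3.53 in Ctrl against 32.8 and 20.2 in Zn10 and Zn15, while ackr3a lay between 37.7 and 39.8 in all 3.

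Which cells held each gene was asked next, in 2 ways. A barcode was called marker-positive for a class when it held UMIs of at least 2 distinct markers of that class and more of them than of any other class, over 17 marker lists that contain none of the 6 genes. This left 7460 of the barcodes with too few markers for a class, called of no class below, and 365 more tied between classes. Separately, barcodes with at least 100 genes were clustered with the 6 genes left out, which gave 20 clusters. The classes differ in depth, so levels are given as CPM of the class.

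The genes divided by cell class. Ligand cxcl12b and receptor ackr3a were highest in endothelial marker-positive barcodes, and cxcl12a in oligodendrocyte precursor marker-positive barcodes. The level of cxcr4b was highest in microglia or macrophage marker-positive barcodes, at a level inside the endothelial interval. As a background, oligodendrocyte marker-positive barcodes, 1406 in number with a median of 268 UMIs, had cxcl12a at 12.3 CPM (4.52 to 26.8) and cxcr4b at 14.4 CPM (5.78 to 29.6). In them 0.427% of barcodes had a cxcl12a UMI and 0.356% a cxcr4b UMI. They had no UMI of cxcl12b, ackr3a or cxcr4a, and 0 of 1406 allows a share of up to 0.213%.

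**Figure D2:**
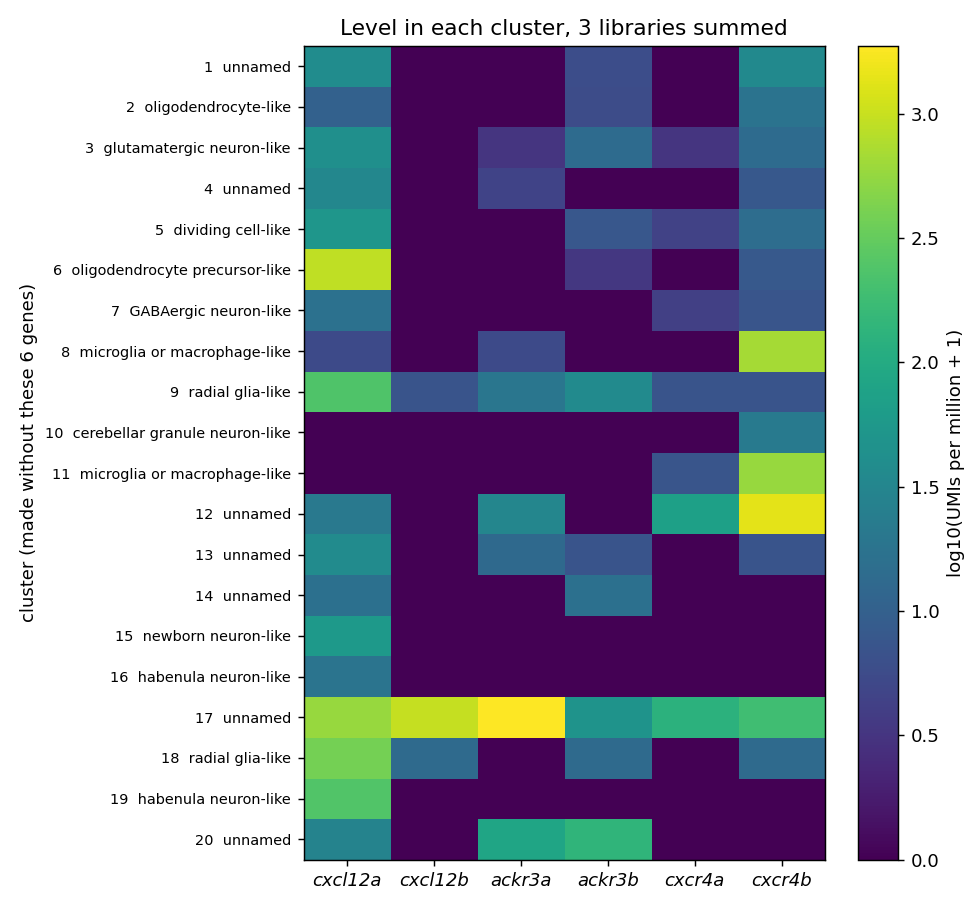
Level of each gene (columns) in each of the 20 clusters (rows, with the class name where one was given), the 3 libraries summed, as log10 of CPM plus 1. cxcl12b and ackr3a peaked in cluster 17, at 966 and 1869 CPM, cxcl12a in cluster 6 at 911 CPM and cxcr4b in cluster 12 at 1376 CPM.

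Endothelial cells line the vessels, and the barcodes positive for their markers numbered 43 with a median of 279 UMIs. The most abundant endothelial markers in them were flt1, a receptor of vascular endothelial growth factor, with 34 UMIs, and the transcription factor genes fli1a with 28 and sox7 with 24. The radial glia marker cx43, a gap junction gene, had more UMIs in them than any of these, 73 at 4806 CPM, beside 6356 CPM in radial glia and 967 CPM in microglia or macrophage marker-positive barcodes. Its part in the values below was not tested. They made up 0.314% of barcodes and held 80.3% of all cxcl12b UMIs and 49.4% of all ackr3a UMIs. The level of cxcl12b in them was 3752 CPM (2842 to 4862) and that of ackr3a 5398 CPM (4293 to 6701). Outside them, the highest level of cxcl12b in a marker-positive class was 4.88 CPM in radial glia, from 2 UMIs. A UMI of ackr3a was found in 67.4% of endothelial marker-positive barcodes, 29 of 43, against 0.742% of radial glia marker-positive barcodes, whose median was 363 UMIs. Marker-positive barcodes of mural cells, which surround vessels, held 2 ackr3a UMIs, in 1 of 21 barcodes, and fibroblast ones held 1 UMI. With 3 distinct markers the mural level was 1004 CPM (122 to 3625), from 1 of 6 barcodes. With at least 200 genes the level of ackr3a in 17 endothelial marker-positive barcodes was 2818 CPM (1840 to 4128).

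Both copies of the signalling receptor were also present there at low counts. Of the 24 UMIs of cxcr4a, 7 lay in endothelial marker-positive barcodes, which is 29.2%, at 461 CPM (185 to 949). Of these 7, Zn10 gave 5. Lymphocyte and mural marker-positive barcodes also held cxcr4a UMIs, too few for their levels to be set apart from the endothelial one. The level of cxcr4b in endothelial marker-positive barcodes was 592 CPM (271 to 1125), from 9 UMIs in 5 barcodes. The scavenger copy ackr3b had 2 UMIs in these barcodes, 2.38% of the ackr3 UMIs there.

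In the cluster view, the same signal lay in cluster 17, an unnamed cluster of 179 barcodes led by slco1d1, flt1 and klf2a. It carried as many endothelial as radial glia markers, 3 of each, and mural markers such as pdgfrb. It held 120 of the ackr3a UMIs and 62 of the cxcl12b UMIs. Its 35 endothelial marker-positive barcodes had ackr3a at 6588 CPM (5199 to 8234) and cxcl12b at 4877 CPM (3694 to 6318), with 0 UMIs of cxcl12a. The other 144 barcodes of the cluster had ackr3a at 819 CPM (593 to 1103), cxcl12b at 95.2 CPM (30.9 to 222) and cxcl12a at 724 CPM (512 to 993). Within this cluster, 57 of the 62 cxcl12b UMIs thus lay in a set of barcodes without a cxcl12a UMI. The other 144 barcodes, as a set, held UMIs of both copies.

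Within endothelial marker-positive barcodes, cxcl12b was higher in both zinc libraries than in Ctrl, and ackr3a was lower by an amount that varied with how the barcodes were chosen. Ctrl had 10 such barcodes, Zn10 had 16 and Zn15 had 17. The gene cxcl12b gave 2, 29 and 26 UMIs, at 675 CPM (81.8 to 2440), 4759 CPM (3187 to 6834) and 4238 CPM (2768 to 6210). Its ratio to Ctrl within the class was 7.05 in Zn10 (1.78 to 60.9) and 6.27 in Zn15 (1.57 to 54.5). The gene ackr3a gave 26, 26 and 30 UMIs, at 8781 CPM (5736 to 12866), 4266 CPM (2787 to 6251) and 4890 CPM (3299 to 6981). Its ratio was 0.486 in Zn10 (0.271 to 0.871) and 0.557 in Zn15 (0.318 to 0.980). In cluster 17 the ackr3a ratios were 0.482 (0.296 to 0.778) and 0.444 (0.285 to 0.689). With 3 distinct markers required, which left 2, 8 and 9 barcodes, they were 0.688 (0.249 to 2.19) and 0.947 (0.372 to 2.86), both including 1. With at least 200 genes the Zn10 ratio was 0.813 (0.301 to 2.41), and Zn15 and Ctrl had 6 and 7 UMIs, too few for a ratio here.

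The same was counted by barcode. A UMI of ackr3a was found in 9 of 10 endothelial marker-positive barcodes of Ctrl, 9 of 16 of Zn10 and 11 of 17 of Zn15. A UMI of cxcl12b was found in 2, 7 and 6 of them. The highest barcode held 50%, 27.6% and 38.5% of the cxcl12b UMIs of the class, and the intervals on UMIs do not take this into account. Barcodes with more cxcl12b than ackr3a UMIs numbered 0 in Ctrl, 5 in Zn10 and 4 in Zn15. Of the UMIs of both genes together, cxcl12b made up 7.14% (0.877 to 23.5) in Ctrl, 52.7% (38.8 to 66.3) in Zn10 and 46.4% (33.0 to 60.3) in Zn15. This share is not scaled by the UMIs of other genes, but the choice of endothelial marker-positive barcodes depends on their marker UMIs. Over all barcodes, where no such choice was made, the share was 8.57% (3.21 to 17.7), 46.4% (34.3 to 58.8) and 33.7% (24.4 to 43.9).

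**Figure D3:**
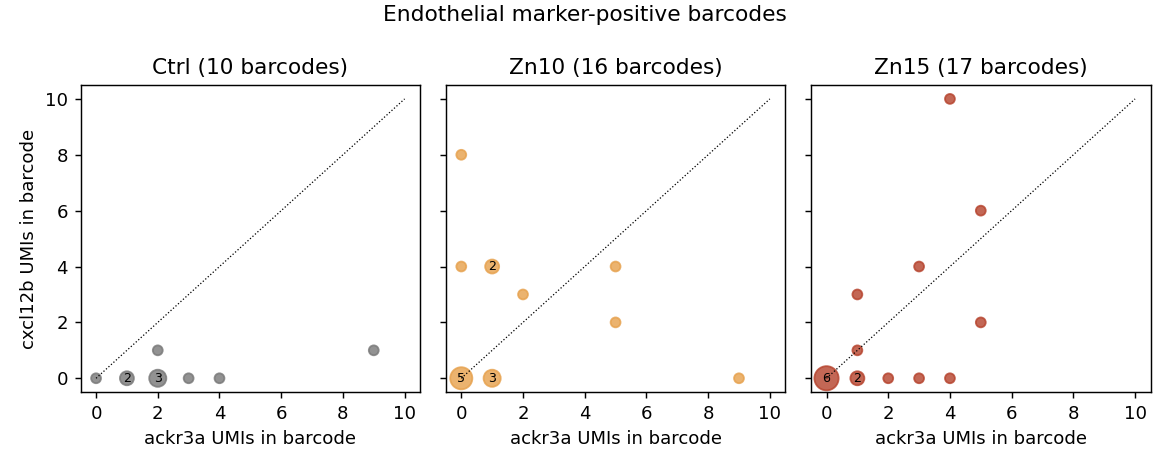
UMIs of cxcl12b against UMIs of ackr3a in each endothelial marker-positive barcode, 1 panel per library; a point stands for the barcodes with those values, its area and the printed number giving how many, and the dotted line marks equal values. No Ctrl barcode lay above the line, against 5 in Zn10 and 4 in Zn15.

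The markers in cluster 17 also differed between libraries. Cluster 17 held 1.06% of the clustered Ctrl barcodes (0.784 to 1.40), beside 1.99% (1.48 to 2.63) for Zn10 and 1.97% (1.56 to 2.44) for Zn15. In it, the 24 endothelial markers summed to 2374, 3246 and 2698 CPM, with overlapping intervals and with 11, 16 and 15 of them detected. The 14 radial glia markers summed to more than any of the other 3 lists given here, at 6232, 6739 and 8062 CPM (3, 6 and 6 detected). The 13 mural markers summed to 1187, 984 and 395 CPM (5, 8 and 7 detected), and the 13 fibroblast markers to 297, 443 and 1448 CPM (2, 4 and 8 detected). The flt1 UMIs in endothelial marker-positive barcodes numbered 3, 17 and 14. Median depth of those barcodes was 227.5, 375.5 and 276 UMIs. The part of these differences in the cxcl12b and ackr3a values was not tested.

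Most UMIs of the other ligand copy, cxcl12a, lay in an oligodendrocyte precursor-like cluster, and some lay outside glial classes. A habenula-like cluster held some of these, but only 2 of its UMIs lay in habenula marker-positive barcodes. A few UMIs lay in mural marker-positive barcodes. Doublets and free RNA were not corrected for, and their part in these UMIs was not tested. In unnamed cluster 17, cxcl12a was at 724 CPM in the barcodes that were not endothelial marker-positive. There, 15 of its UMIs lay in radial glia marker-positive barcodes and 23 in barcodes of no class. Cluster 17 thus does not place it outside glial classes. Oligodendrocyte precursor marker-positive barcodes, which carry the lineage factor gene olig2, had the highest level, 896 CPM (643 to 1215), with a UMI in 26 of 87 barcodes. Radial glia marker-positive barcodes, the stem-like glia of the fish brain, had 510.1 CPM (443 to 584) in 943 barcodes. These held 34.3% of all cxcl12a UMIs. Mural marker-positive barcodes, the contractile cells around vessels, had 786 CPM from 4 UMIs (214 to 2011), whose interval holds both the precursor and the radial glia level. Of these UMIs, 3 lay in 1 barcode outside the clusters and 1 in a barcode of oligodendrocyte precursor-like cluster 6. With 3 distinct markers the mural level was 1505 CPM (310.4 to 4399), from 3 UMIs in 1 of 6 barcodes. Precursor barcodes were then at 699 CPM (361 to 1220), lower but inside that interval. Dividing cell, newborn neuron and GABAergic neuron marker-positive barcodes were lower, at 167 CPM (89.1 to 286), 52.0 CPM (33.7 to 76.8) and 30.6 CPM (11.2 to 66.7). No cxcl12a UMI was found in 750 microglia or macrophage marker-positive barcodes, which allows a share of up to 0.400%.

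The clusters placed most of it in precursors. Cluster 6, oligodendrocyte precursor-like and led by cspg4 and olig1, held 379 of the cxcl12a UMIs, or 62.1%, in 251 of its 833 barcodes, at 911 CPM (821 to 1007). Radial glia-like clusters 9 and 18 were at 236 CPM (168 to 322) and 388 CPM (264 to 551), below cluster 6. Of the radial glia marker-positive barcodes, 215 lay in cluster 6, where cxcl12a was at 960 CPM, against 347 CPM in the 211 in cluster 9 and 393 CPM in the 139 in cluster 18. Some of the radial glia markers, such as glula and slc1a2b, were also present in cluster 6, and the radial glia marker-positive level thus mixes both kinds of glia. Mature oligodendrocyte-like cluster 2 had cxcl12a at 9.46 CPM (2.58 to 24.2) and unnamed cluster 13, which carries oligodendrocyte and precursor markers alike, at 36.4 CPM (13.4 to 79.2).

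Between libraries, cxcl12a in cluster 6 gave 106, 107 and 166 UMIs in Ctrl, Zn10 and Zn15, at 772, 960 and 992 CPM. The ratios were 1.24 in Zn10 (0.942 to 1.64) and 1.29 in Zn15 (1.001 to 1.66). In oligodendrocyte precursor marker-positive barcodes the levels were 862, 935 and 875 CPM, with ratios of 1.08 (0.457 to 2.76) and 1.01 (0.416 to 2.63). Cluster 6 itself took 8.08%, 11.4% and 10.2% of library UMIs. It contributed 62.4, 109.8 and 101.5 CPM to the library levels of cxcl12a. Without cluster 6 the library ratios of cxcl12a were 1.23 in Zn10 (0.856 to 1.75) and 1.25 in Zn15 (0.918 to 1.70), both including 1. In cluster 17 cxcl12a gave 3, 10 and 25 UMIs, at 223, 492 and 823 CPM, with a Zn15 ratio of 3.70 (1.13 to 19.1).

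Most UMIs of the signalling receptor gene cxcr4b lay in microglia or macrophage-like clusters 8 and 11 and in cluster 12. Microglia or macrophage marker-positive barcodes, 750 with a median of 387.5 UMIs, had 747 CPM (655 to 848) and a cxcr4b UMI in 22.4% of barcodes. They held 48.6% of all cxcr4b UMIs. Lymphocyte marker-positive barcodes had 448 CPM (92.4 to 1309) from 3 UMIs, and this level cannot be set apart from that of microglia or endothelial barcodes. The order of microglia and endothelial barcodes changed with the choice of barcodes. With 3 distinct markers cxcr4b was at 875 CPM (352 to 1802) in endothelial and 676 CPM (572 to 794) in microglia or macrophage barcodes, and with at least 200 genes at 759 CPM (305 to 1563) and 612 CPM (504 to 736), the endothelial values from 7 UMIs each. Newborn neuron, radial glia and GABAergic neuron marker-positive barcodes had 22.9 CPM (11.4 to 41.0), 26.8 CPM (13.4 to 48.0) and 10.2 CPM (1.24 to 36.9), intervals that overlap the oligodendrocyte background.

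The highest cluster level was in cluster 12, at 1376 CPM (1154 to 1628), with a UMI in 89 of 334 barcodes. This unnamed cluster was led by the immunoglobulin genes ighv1-4 and igic1s1. Also among its 10 leading genes were rgs13, runx3, the chemokine receptor gene ccr9a and the chemokine gene ccl19a.1. It carried 5 microglia or macrophage markers and 2 lymphocyte markers. The microglia or macrophage-like clusters 8 and 11 were at 679 CPM (576 to 795) and 579 CPM (466 to 711). These intervals overlap each other and lie below that of cluster 12. Cluster 8 was led by genes of inflammation such as il1b and cluster 11 by lgals3bpb and apoc1. The 7 UMIs of cxcr4a in cluster 12 gave 70.8 CPM.

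Between libraries, cxcr4b in cluster 12 gave 22, 36 and 78 UMIs in Ctrl, Zn10 and Zn15, at 947, 1553 and 1487 CPM. The ratios were 1.64 (0.939 to 2.93) and 1.57 (0.968 to 2.65), both including 1. Cluster 12 held 1.77% of the clustered Ctrl barcodes (1.41 to 2.19), beside 3.17% (2.52 to 3.94) for Zn10 and 4.22% (3.63 to 4.88) for Zn15. Its contribution to the library level of cxcr4b was 13.0, 36.9 and 47.7 CPM. Without cluster 12 the library ratios of cxcr4b were 1.01 in Zn10 (0.742 to 1.35) and 1.31 in Zn15 (1.03 to 1.67).

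In microglia or macrophage marker-positive barcodes cxcr4b gave 78, 56 and 104 UMIs, at 567 CPM (448 to 708), 1130 CPM (853 to 1467) and 791 CPM (646 to 958). Zn10 was highest, with a ratio of 1.99 (1.39 to 2.84), and Zn15 had a ratio of 1.39 (1.03 to 1.89). Most of these barcodes came from clusters 8, 11 and 12, with 252, 313 and 101 of them, and 74 were not clustered. Over the libraries, cxcr4b was at 643, 588 and 1877 CPM in those of clusters 8, 11 and 12. The class level and its ratios thus mix clusters whose shares differed between libraries. Within cluster 8 the levels were 645, 903 and 638 CPM, and within cluster 11 434, 818 and 656 CPM. The Zn10 ratio was 1.399 in cluster 8 (0.868 to 2.21) and 1.88 in cluster 11 (1.005 to 3.44). In barcodes with at least 200 genes, the Zn15 ratio of marker-positive barcodes was 0.920 (0.580 to 1.46), and Zn15 over Zn10 went from 0.700 (0.501 to 0.987) to 0.493 (0.299 to 0.816). With 3 distinct markers the Zn15 ratio to Ctrl was 1.13 (0.769 to 1.67). Clusters 8 and 11 held smaller shares in Zn10, 2.81% and 1.99% of clustered barcodes, than in Ctrl, 5.51% and 3.46%.

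**Figure D4:**
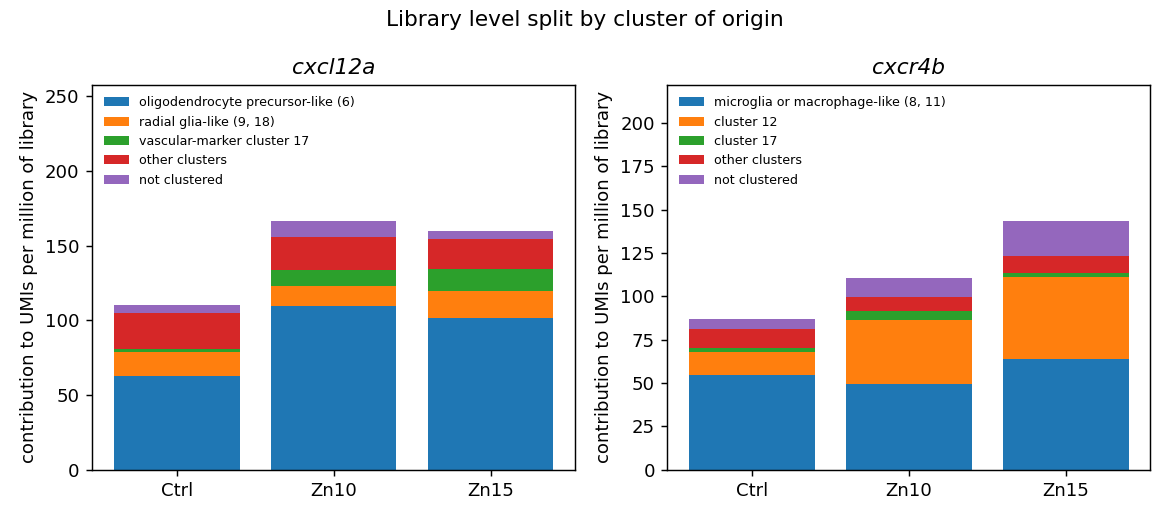
Library level of cxcl12a (left) and cxcr4b (right) split by the cluster the UMIs came from, in CPM of the whole library; bars stack to the library level. Cluster 6 made up 62.4, 109.8 and 101.5 of the cxcl12a level, and cluster 12 13.0, 36.9 and 47.7 of the cxcr4b level in Ctrl, Zn10 and Zn15.

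The scavenger copy ackr3b was sparse in every class. Its 32 UMIs came from 28 barcodes spread over 11 clusters, with 2 UMIs outside the clustered barcodes. Radial glia marker-positive barcodes held 9 of them, at 22.0 CPM (10.0 to 41.7). That was the highest level among classes with at least 5 ackr3b UMIs. Endothelial and lymphocyte marker-positive barcodes, 43 and 16 in number, held 2 UMIs each and so stood higher, but from few UMIs. Endothelial barcodes with 3 distinct markers were at 250 CPM (30.3 to 903), also from 2 UMIs. By cluster ackr3b was highest in cluster 20, at 138.5 CPM (45.0 to 323) from 5 UMIs. Cluster 20 had 59 barcodes and was led by cp, vtnb, epd, slc13a4 and rbp4. For ackr3a, cluster 20 had 83.1 CPM against 1869 CPM in cluster 17. Cluster 17 held 3 ackr3b UMIs, so the order of these clusters for ackr3b rests on few UMIs.

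The ligand and receptor found together in the most barcodes were cxcl12b and ackr3a. Of 27 barcodes with cxcl12b and 73 with ackr3a, 21 had both, which is 77.8% of the former and 28.8% of the latter. By library these were 5 of 5 cxcl12b barcodes in Ctrl, 5 of 10 in Zn10 and 11 of 12 in Zn15. With barcodes thinned to 200 UMIs, 12 of 13 cxcl12b barcodes also had ackr3a. The ligand cxcl12b also shared 4 barcodes with cxcr4a, 14.8% of its own and 17.4% of the 23 with cxcr4a, all 4 of them in Zn10. With cxcr4b it shared 4 barcodes as well, 14.8% of its own and 1.07% of those with cxcr4b. No barcode held both ligand copies, with 417 holding cxcl12a and 27 cxcl12b. With so few cxcl12b barcodes, this absence cannot be read as exclusion. Both cxcl12a and cxcr4b were found in 3 barcodes, 0.719% of the former and 0.800% of the 375 with cxcr4b. How many shared barcodes unrelated genes would give was not computed. The receptors cxcr4b and ackr3a shared 8 barcodes, and the copies cxcr4a and cxcr4b shared 4.

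Genes with the most similar pattern were sought over 32 sums of class and library, among 4328 genes with at least 100 UMIs that were no class marker. Sums of under 5000 UMIs were left out. Endothelial barcodes therefore entered with Zn10 and Zn15 only, and mural, fibroblast, lymphocyte and neutrophil barcodes did not enter. The measure was Pearson's r of log2(CPM + 10), given as a description over points that share libraries and classes. The values for cxcl12b and ackr3a include no endothelial point of Ctrl and lean on those of the zinc libraries. For cxcl12b the nearest were the endothelin receptor gene ednraa (0.89), bsg (0.79) and socs3a (0.77), and for ackr3a ednraa (0.92), selenop (0.83) and socs3a (0.79). For cxcl12a they were the apelin receptor gene aplnrb (0.83), lrp1aa (0.75) and the brain matrix gene bcan (0.74). For cxcr4b they were ncf1 (0.91), which codes for a subunit of the phagocyte oxidase, si:ch73-86n18.1 (0.85) and tspan36 (0.85). For ackr3b, from few UMIs, they were rbp4 (0.85), cp (0.84) and ggctb (0.76). The gene cxcr4a had too few UMIs for this.

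The other chemokine ligand genes moved both ways between libraries. Of the other receptor genes, 6 in Zn10 and 8 in Zn15 had at least 20 UMIs in the pair with Ctrl. None of these was 1.5-fold lower than in Ctrl, but they were too few to be set apart from all genes. Beside the counts below, 16.4% of all genes tested were higher and 10.7% lower in Zn10, and 11.4% and 14.2% in Zn15. Of 36 other ligand genes in the files, 11 had at least 20 UMIs in Zn10 and Ctrl, of which 2 were at least 1.5-fold higher and 3 lower, with a median log2 ratio of −0.11. In Zn15, 13 did, with 2 higher, 4 lower and a median of −0.03. The neutrophil attractant gene cxcl8a gave 252, 72 and 141 UMIs in Ctrl, Zn10 and Zn15 and was highest in cluster 11. The ligand gene ccl34b.1 gave 274, 96 and 120 UMIs, also highest in cluster 11, and ccl25b, known in mammals from thymus and gut, gave 51, 50 and 23 UMIs with 2770 CPM in cluster 20. The most abundant ligand-list gene, the nuclear protein gene hmgb1a, was close to even, with a Zn10 ratio of 1.02.

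Of 23 other receptor genes in the files, 6 were measured in Zn10 over Ctrl, with 2 higher, 0 lower and a median of 0.49, and 8 in Zn15, with 4 higher, 0 lower and a median of 0.57. The most abundant genes listed with the receptors, cd74a and cd74b, were also used here as microglia or macrophage markers. Their Zn10 ratios were 0.779 (0.722 to 0.839) and 0.803 (0.639 to 1.003). In Zn15 they were 1.01 (0.948 to 1.07) and 1.19 (1.003 to 1.41). The receptor gene ccr9a gave 20, 40 and 74 UMIs and was highest in cluster 12, at 809 CPM, and cxcr3.3 gave 49, 61 and 98 UMIs and was highest in cluster 8. Over all genes with at least 20 UMIs in the pair the medians were 0.09 in Zn10 and −0.06 in Zn15. Of 35 genes of signalling downstream of chemokine receptors, 26 were measured in Zn10, with 5 higher and 0 lower, and 27 in Zn15, with 4 higher and 4 lower. The most abundant, the G protein subunit gene gnb1b, had a Zn10 ratio of 0.835, and gnai2b, which codes for an inhibitory G protein subunit, had 1.83. The gene pik3cg, which codes for a lipid kinase of leukocytes, gave 41, 54 and 67 UMIs and was highest in cluster 12, at 364 CPM.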

How the data were processed

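Per the file headers, the deposited matrices were written by Cell Ranger 4.0.0 and hold UMI counts per gene and barcode as whole numbers, not normalised by the authors. Per the submitters' processing notes, fastp, Seurat and GRCz11 were also used, in roles not stated. Neither source names the annotation release or how cells were called.

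Counts were summed over a library or class and scaled to 1000000 UMIs (CPM). With 1 library per treatment, no p-value was computed. CPM carry exact Poisson, shares Clopper-Pearson and ratios conditional binomial intervals (scipy 1.17.1), and ratio and class steps were tested on simulated data. Clustering took barcodes of 100 or more genes and of mitochondrial UMIs up to 30%, and used scanpy 1.11.5 and leidenalg 0.10.2, without integration. Counts were scaled to 300 UMIs, and 2000 variable genes, 30 components, 15 neighbours and resolution 1.0 were used. Mitochondrial, ribosomal protein and haemoglobin genes, malat1 and the 6 members were left out. This kept 4629, 2459 and 4119 barcodes. A cluster was named for a class with at least 3 markers 2-fold or more higher with 15 or more UMIs, more than for any other class, and at least 1 among its 30 leading genes. This naming rule was set after the clusters had been seen. Of the 20 clusters, 13 were named.

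Members, lists and tests were chosen with earlier results of these data known. All members are named with their values, list genes by a minimum of 100 UMIs, and the 3 genes of most similar pattern for each member with at least 30 UMIs. Doublets were not called or removed, and free RNA was not corrected. Whether cells or nuclei were loaded was not settled, and copies of a gene pair may share reads. No sequence was printed, because none was in the tables used. Alternatives were other scalings, filters on genes or barcodes, thinning to 200 UMIs, 3 distinct markers and clusters.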

Additional observations from a re-analysis of the deposited data

How the results depend on the processing

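No paired analysis was possible because each treatment had 1 library. Values were recomputed under other settings, and 120 recomputed values stayed inside the interval of the reported one while 30 moved. Ratios reported as past 1.5-fold kept their direction in the settings computed, except cxcl12b in Zn15 over Zn10 without cluster 17. That ratio went from 0.615 to 1.19 (0.171 to 13.2), from 4 and 2 UMIs. Without cluster 17 the cxcl12b ratio to Ctrl was 1.18 in Zn10 (0.0983 to 10.3) and 1.40 in Zn15 (0.237 to 9.56), both including 1. Some ratios reported near 1 also changed direction. The ackr3a ratio went from 1.05 to 0.606 in Zn15 over Zn10 with at least 200 genes. In Zn10 over Ctrl the ackr3a ratio went from 1.01 to 0.441 without cluster 17. Total UMIs without malat1, the median of ratios, barcodes with at least 100 genes and leaving out the highest barcode of each library moved no member ratio outside its interval. With barcodes of at least 200 genes, library ratios moved for cxcl12a in Zn15 over Zn10 (1.22), for cxcl12b in Zn10 over Ctrl (33.1) and Zn15 over Zn10 (0.212), for ackr3a in the 3 comparisons (3.099 and 1.88 against Ctrl in Zn10 and Zn15, 0.606 in Zn15 over Zn10), for cxcr4a in Zn15 over Zn10 (0.121) and for cxcr4b in Zn15 over Ctrl (1.199). Within the leading class that filter gave 0.391 for cxcl12b in Zn15 over Zn10 and 0.920 and 0.493 for cxcr4b in Zn15 over Ctrl and over Zn10, and 2818 CPM for ackr3a. The cause was not tested. Within-class ratios with under 20 UMIs in the pair were not computed, among them cxcl12b and ackr3a in Zn15 over Ctrl with that filter and cxcl12b in Zn15 over Ctrl with 3 distinct markers. At 200 UMIs per barcode, the ratios of shares of barcodes with cxcl12a were 1.21 in Zn10 and 1.19 in Zn15 over Ctrl. These were set against CPM ratios, and without thinning the ratios of shares were 1.49 and 1.22. Chosen after seeing the data, leaving out cluster 17 gave ackr3a ratios of 0.441 in Zn10 over Ctrl and 2.50 in Zn15 over Zn10, and leaving out cluster 12 a cxcr4b ratio of 1.31 in Zn15. With 3 distinct markers cxcl12b stood at 5247 CPM in endothelial barcodes, and the highest cxcr4b level was there too, at 875 CPM from 7 UMIs. By cluster the highest levels were 966 CPM for cxcl12b, 1869 CPM for ackr3a and 125 CPM for cxcr4a in cluster 17, 138.5 CPM for ackr3b in cluster 20 and 1376 CPM for cxcr4b in cluster 12. With genes of at least 1 UMI, 57.0%, 51.9% and 56.6% were past 1.5-fold in the 3 comparisons, and with at least 100 UMIs 15.1%, 14.1% and 15.1%. Depth limits cxcr4a and ackr3b, with 24 and 32 UMIs in all, most.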

Other observations

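The ligand gene cxcl12a was also present in habenula-like cluster 19, led by gng8, tgfbi and tac3a, with 12 UMIs in 8 of 123 barcodes, at 239 CPM (124 to 418). Of these UMIs, 2 lay in habenula marker-positive barcodes, 3 in 1 cerebellar granule neuron marker-positive barcode and 7 in barcodes of no class. The other habenula-like cluster, 16, led by kiss1 and gpr139, had 1 UMI in 181 barcodes, at 17.2 CPM (0.436 to 95.9). Cluster 19 had no UMI of any of the 4 receptor genes. The habenula is a paired relay nucleus of the forebrain.

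Within oligodendrocyte precursor-like cluster 6, cxcl12a was found across barcodes with different markers. The 9 barcodes positive for dividing cell markers held 11 UMIs, at 1501 CPM. The 68 positive for precursor markers were at 1082 CPM and the 469 with too few markers for a class at 803 CPM.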
